A study of Mus musculus with 15 samples.

Results

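The expression of 10 genes of MHC class I antigen presentation was described across 15 mouse RNA-seq samples that follow the formation of primordial germ cell-like cells (PGCLCs). The genes were taken from a list of names, and the list was chosen with earlier results of these data known. They were the class I heavy chains H2-K1, H2-D1 and H2-T23, the light chain B2m, the class I transactivator Nlrc5, the peptide transporter subunits Tap1 and Tap2, the tapasin gene Tapbp, and the immunoproteasome subunits Psmb8 and Psmb9. All 10 were found among the 55536 genes of the count table. Of these, 9 passed the filter on low counts and were tested, and H2-T23, which did not pass, is described by its counts.

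The study asked whether 4 induced transcription factors (4TF) can turn epiblast-like cells into PGCLCs without added cytokines. RNA was sequenced from naive embryonic stem cells (ESCs, kept in 2i and LIF), from epiblast-like cells (EpiLCs, 48 h in Activin A, bFGF and knockout serum replacement) and from PGCLCs sorted for Stella-eGFP after 2, 4 and 6 days with doxycycline (D2PGCLC, D4PGCLC and D6PGCLC), with 3 samples in each of the 5 groups. By the study's methods the cells were a Stella-eGFP reporter ESC line that carried doxycycline-inducible Prdm1, Prdm14 and Nanog on piggyBac vectors under the hCMV1 promoter, a CAG-driven rtTA and a lentiviral tetO-Tfap2c, and doxycycline was added at day 0 of PGCLC induction. The line came from drug-selected clones, only the PGCLCs were selected for the reporter, and nothing states that the 3 samples of a group were separate cultures, so p-values measure only the spread between these samples, which may be technical.

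MHC class I molecules show peptides from a cell's own proteins to CD8 T cells. The proteasome cuts the proteins, the TAP transporter moves the peptides into the endoplasmic reticulum, tapasin holds empty class I molecules next to TAP, and a heavy chain reaches the surface only when it is bound to beta-2 microglobulin and a peptide. Interferon-gamma raises most of these genes, in part through IRF1 and NLRC5, and replaces the constitutive catalytic subunits of the proteasome with immunoproteasome subunits. Pluripotent stem cells are known for low surface levels of class I.

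The libraries held 22555021 to 42725681 counts, at which 3 counts, taken as the limit that a count of 0 allows, equal 0.0702 to 0.133 CPM (counting error only), where CPM is the count scaled to the size of the library. Stage markers followed the labels: 4 of 4 EpiLC markers were called higher and 4 of 6 naive markers lower in EpiLCs than in ESCs, and 6 of 9 germ cell markers, among them genes that the transgenes encode, were called higher in D2PGCLCs than in EpiLCs. D6PGCLC replicate 1 stood apart. It had 18061 detected genes against 21103 to 24343 in the other 14 libraries, and it listed at 0 a total of 170 genes that had at least 20 counts in both other D6PGCLC samples, where each of the other 14 libraries had 0 to 2 such genes. Psmb8, Nlrc5 and H2-T23 were also at 0 in this library, and values without this library stand beside the D6PGCLC comparisons called for these genes.

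The genes lie at few places in the genome (GENCODE M21 on mm10). The MHC on chromosome 17 held 8 of the 10, within 2.12 Mb from base 33915899 to base 36032855. Psmb9 (chr17:34181987-34187764), Tap1 (chr17:34187553-34197225), Psmb8 (chr17:34197721-34201454) and Tap2 (chr17:34203527-34216321) are neighbours: Psmb9 and Tap1 run head to head and overlap by 212 bases, 495 bases separate Tap1 from Psmb8, and 2072 bases separate Psmb8 from Tap2. H2-K1 (chr17:33996017-34000347) and H2-D1 (chr17:35262730-35267499) are at the 2 sides of this group, Tapbp (chr17:33915899-33929292) lies 66.7 kb before H2-K1, and H2-T23 is at chr17:36029773-36032855. B2m (chr2:122147686-122153083) and Nlrc5 (chr8:94434356-94527272) are elsewhere.

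Promoter windows from RefSeq (GRCm38.p6, 250 bases before to 50 after the start of transcription) were at hand for 8 of the 10 genes, with Tap2 and Nlrc5 not analysed here. The windows of 6 genes are printed 5′ to 3′ because they cover both classical heavy chains, the light chain, 2 of the genes that were higher in EpiLCs, and Tapbp, which followed another course. Capitals mark every match, on either strand, to the letters GGGG, ATT and CCCC in a row (an NF-kB site), GAAA and GAAA with any 2 bases between (an interferon-stimulated response element, ISRE), GAA and GAAA with any 2 bases between (a shorter form, which a match to the full form does not contain), TGACG (the core of the X2 box) and CCAAT (the Y box).
H2-K1 (chr17:34000298-34000597, minus strand): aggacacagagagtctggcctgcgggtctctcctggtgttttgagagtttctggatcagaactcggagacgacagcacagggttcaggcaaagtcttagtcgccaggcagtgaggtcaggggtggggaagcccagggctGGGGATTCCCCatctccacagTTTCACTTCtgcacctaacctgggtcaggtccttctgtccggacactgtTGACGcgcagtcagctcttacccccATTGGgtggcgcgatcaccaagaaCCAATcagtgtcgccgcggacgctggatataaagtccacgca
H2-D1 (chr17:35262844-35263143, plus strand): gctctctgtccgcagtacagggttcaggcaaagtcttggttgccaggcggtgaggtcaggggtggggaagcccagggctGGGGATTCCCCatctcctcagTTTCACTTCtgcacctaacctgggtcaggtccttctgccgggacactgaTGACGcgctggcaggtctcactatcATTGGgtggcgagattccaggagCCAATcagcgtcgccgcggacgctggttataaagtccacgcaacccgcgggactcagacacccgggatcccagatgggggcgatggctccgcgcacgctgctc
B2m (chr2:122147437-122147736, plus strand): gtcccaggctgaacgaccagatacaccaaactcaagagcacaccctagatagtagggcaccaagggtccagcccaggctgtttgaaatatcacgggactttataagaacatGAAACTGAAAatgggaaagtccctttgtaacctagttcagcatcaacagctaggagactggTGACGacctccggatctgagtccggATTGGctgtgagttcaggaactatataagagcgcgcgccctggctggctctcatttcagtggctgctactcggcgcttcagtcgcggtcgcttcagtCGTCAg
Tap1 (chr17:34187306-34187605, plus strand): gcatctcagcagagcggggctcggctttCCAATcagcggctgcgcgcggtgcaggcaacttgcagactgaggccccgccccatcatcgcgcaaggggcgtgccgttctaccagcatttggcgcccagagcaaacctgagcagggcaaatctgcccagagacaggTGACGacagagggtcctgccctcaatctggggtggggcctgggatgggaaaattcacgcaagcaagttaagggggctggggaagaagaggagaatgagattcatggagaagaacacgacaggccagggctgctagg
Psmb8 (chr17:34197945-34198244, plus strand): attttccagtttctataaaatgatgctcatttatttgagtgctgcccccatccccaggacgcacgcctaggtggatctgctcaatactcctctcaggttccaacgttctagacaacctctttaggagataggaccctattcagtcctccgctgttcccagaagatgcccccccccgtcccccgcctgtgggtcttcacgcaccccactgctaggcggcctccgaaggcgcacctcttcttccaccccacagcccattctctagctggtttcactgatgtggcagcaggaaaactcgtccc
Tapbp (chr17:33919228-33919527, plus strand): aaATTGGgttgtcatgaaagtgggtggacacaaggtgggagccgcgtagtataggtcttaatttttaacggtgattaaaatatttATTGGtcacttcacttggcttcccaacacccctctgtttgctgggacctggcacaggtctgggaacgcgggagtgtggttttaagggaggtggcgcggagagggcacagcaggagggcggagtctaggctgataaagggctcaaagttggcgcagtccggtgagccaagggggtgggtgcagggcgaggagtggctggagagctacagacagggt

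H2-K1 and H2-D1 share the same order of letters: an NF-kB match, a short ISRE match, an X2 core and a pair of Y boxes. Aligned on the NF-kB match without gaps, 176 of 240 bases of the 2 windows were identical (73.3%). The NF-kB letters occur in 10 of the 32851 mouse promoter windows (0.0304%). B2m and H2-T23 held the full ISRE letters, which 3.44% of all windows hold, whereas the short ISRE of H2-K1 and H2-D1 occurs in 7.52%. The X2 core was found in 5 of the 8 genes (20.8% of all windows) and the Y box in 7 of the 8 (37.4%). The windows of Tap1 and Psmb9 (chr17:34187281-34187580, minus strand) overlap on opposite strands. Their X2 core and their Y box are the same bases, counted for both genes, so these counts are not of independent windows. None of these letters was present in the window of Psmb8, and Tapbp held only Y boxes. Both windows (from bases 34197945 and 33919228) begin inside the gene as GENCODE places it (from bases 34197721 and 33915899). So do those of H2-D1 (from base 35262844, gene from 35262730) and, on the minus strand, Psmb9 (from base 34187580, gene from 34187764). The bases before those starts were not searched. The map of these matches gives their distances from the start site. A match is a description of the letters and not evidence of binding.

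**Figure D1:**
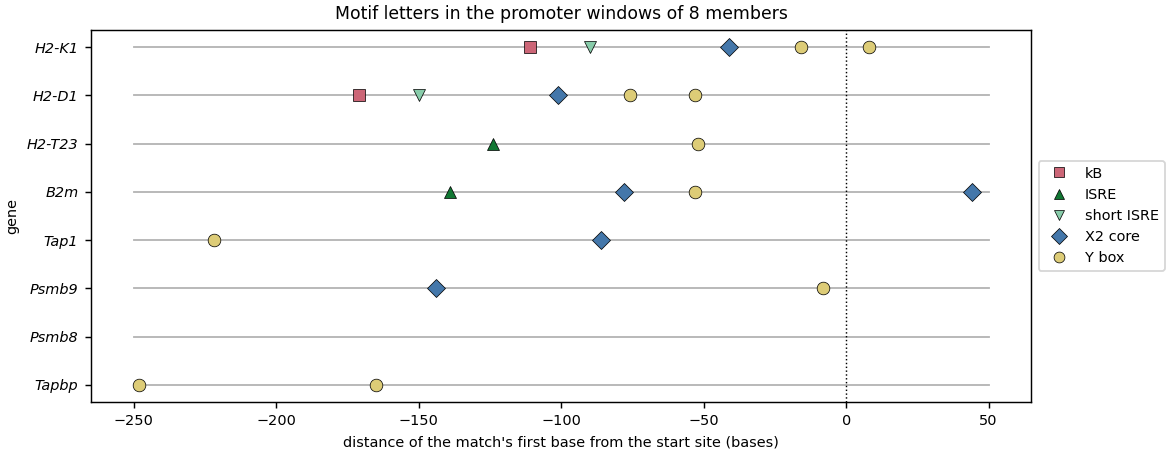
Position of each motif match (symbols) relative to the start of transcription (0, dotted line) in the promoter windows of 8 genes; the x axis is in bases and each grey line is the window from 250 bases before to 50 after the start. H2-K1 and H2-D1 have the same order of matches, B2m and H2-T23 have a full ISRE match, and Psmb8 has no match.

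From stage to stage, these genes did not move as a block. In EpiLCs against ESCs the transporter and immunoproteasome genes were higher, while the heavy chains and B2m were not called. In D2PGCLCs against EpiLCs those genes fell and the classical heavy chains fell with them. Between days 2 and 4 Tap1 alone was called higher, and between days 4 and 6 no member was called. A gene was called where edgeR's quasi-likelihood test gave a Benjamini-Hochberg adjusted p under 0.05 over all 18090 genes tested and the fold change exceeded 2, which is 1 on the log2 scale. Values are log2 fold changes ± SE unless another scale is named.

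Of the 9 tested genes, 4 were called higher and 0 lower in EpiLCs than in ESCs, where 14.4% of all tested genes were higher and 11.9% lower. Their median log2 fold change was 1.33 and that of all tested genes -0.01. In D2PGCLCs against EpiLCs, 0 were higher and 7 lower (11.0% and 14.4% of all tested genes), with a median of -2.33 beside 0.00 for all genes. In D4PGCLCs against D2PGCLCs, 1 was higher and 0 lower (2.56% and 0.376% of all genes), with a median of 0.49 beside 0.02. In D6PGCLCs against D4PGCLCs 0 were called in either direction (2.29% of all genes were higher and 0.785% lower), with 2 of the 9 at an unadjusted p under 0.05 in edgeR and 0 called by DESeq2. By the adjusted p alone, without the fold cutoff, 5, 8, 3 and 1 of the 9 passed in these 4 steps, where 52.5%, 53.2%, 11.9% and 12.8% of all genes did. The plot of fold changes shows each step. These comparisons share groups, so a gene that is high in EpiLCs alone is called in both of the first steps.

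**Figure D2:**
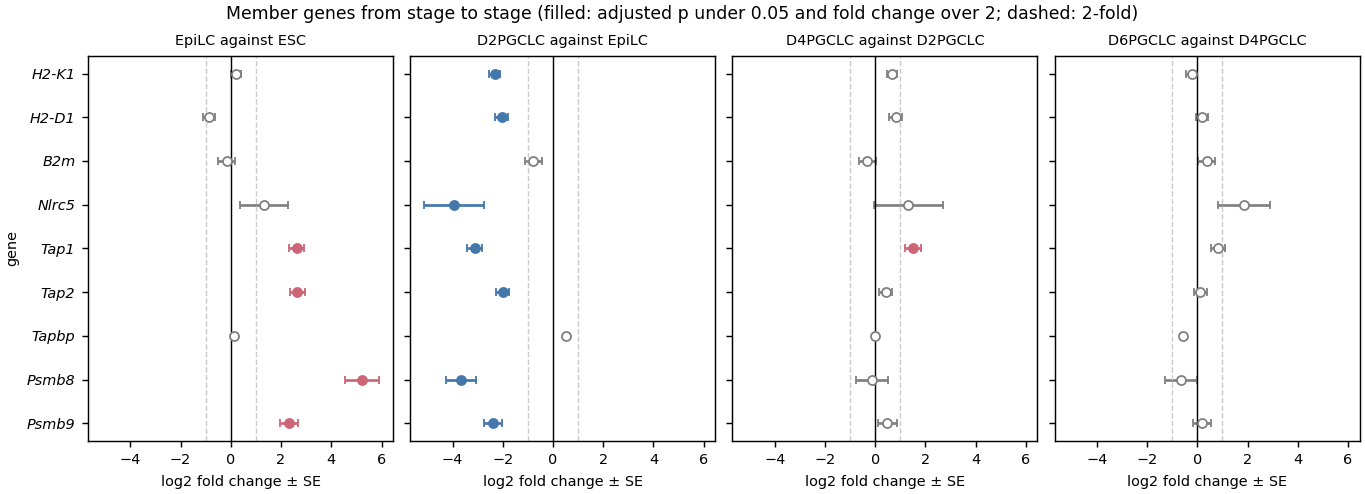
Log2 fold change (x axis) of the 9 tested genes (y axis) in the 4 successive comparisons, with error bars of 1 SE from the edgeR fit; filled points passed the adjusted p and the 2-fold cutoff (dashed lines), in red when higher and in blue when lower. Tap1, Tap2, Psmb8 and Psmb9 are filled to the right in EpiLCs against ESCs, and 7 genes are filled to the left in D2PGCLCs against EpiLCs.

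The classical heavy chains H2-K1 and H2-D1 present peptides to T cells. H2-K1 stood at 65.5, 61.3 and 64.3 TMM-normalised CPM in the 3 ESC samples, and at 66.2, 73.8 and 79.6 in EpiLCs. The PGCLC samples held 13.2, 21.3 and 9.36 on day 2, 19.6, 29.1 and 20.8 on day 4, and 16.4, 24.4 and 18.4 on day 6. ESCs and EpiLCs were high, and each of their samples lay above each PGCLC sample. H2-K1 did not differ by the test between EpiLCs and ESCs (0.20 ± 0.20, adjusted p = 0.432) and fell by 2.33 on the log2 scale (SE 0.22) in D2PGCLCs against EpiLCs, a 5.03-fold decrease (adjusted p = 5.08e-08). The PGCLC days overlapped. D4PGCLCs were 0.67 ± 0.22 above D2PGCLCs with an adjusted p of 0.0497, under the 2-fold cutoff, and at 1.03 past it without D2PGCLC replicate 2. D6PGCLCs were 3.22-fold below ESCs (-1.69, adjusted p = 2.12e-06) and 3.70-fold below EpiLCs (-1.89, adjusted p = 4.36e-07), and the log2 values were -1.55 and -1.76 without D6PGCLC replicate 1.

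H2-D1 took a different course at the first step. Its level was 27.9, 28.4 and 29.6 CPM in ESCs and 14.7, 14.6 and 17.8 in EpiLCs, followed by 2.51, 5.84 and 3.15 on day 2, 5.67, 8.86 and 5.64 on day 4, and 5.99, 9.58 and 7.37 on day 6. ESCs were highest, EpiLCs were intermediate without overlap with either side, and the 3 PGCLC days overlapped in sequence. The value in EpiLCs was 1.82-fold below that in ESCs (-0.87 ± 0.23, adjusted p = 0.00424), which is under the 2-fold cutoff. D2PGCLCs fell a further 4.13-fold from EpiLCs (adjusted p = 1.74e-06) and lay 7.52-fold below ESCs (adjusted p = 2.07e-08). D4PGCLCs were 0.82 ± 0.25 above D2PGCLCs with an adjusted p of 0.0426, under the cutoff, and at 1.24 past it without D2PGCLC replicate 2. On day 6 H2-D1 was 3.74-fold below ESCs (-1.90, adjusted p = 2.26e-06), or -1.73 without D6PGCLC replicate 1. Against EpiLCs it was 2.05-fold lower on day 6 (adjusted p = 0.00108), and without D6PGCLC replicate 1 the log2 value was -0.88 (adjusted p = 0.00731) and no longer past the fold cutoff.

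The balance of these 2 heavy chains differed between groups. Of their joint CPM per kilobase of exon, H2-K1 made up 66.1% ± 1.05 (SD, n = 3) in ESCs, 80.4% ± 1.07 in EpiLCs, 76.9% ± 5.01 on day 2, 75.3% ± 1.08 on day 4 and 69.5% ± 1.05 on day 6 (68.9% without D6PGCLC replicate 1). The ESC and EpiLC samples did not overlap, nor did those of day 4 and day 6. For both pairs the exact two-sided permutation test gave p = 0.1, the smallest that 3 against 3 samples allow, and 0.165 after adjustment over the 28 tests of this kind, so the design could not reach 0.05. H2-K1 and H2-D1 are near-identical to other class I genes, and the H2 haplotype of the line and the handling of reads with several matches are not given in the sources used here. How their reads were split is uncertain to that extent.

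B2m, the light chain that every class I heavy chain needs, changed less. It stood at 6.57, 6.79 and 6.63 CPM in ESCs and 6.50, 5.29 and 6.05 in EpiLCs, then at 2.94, 3.83 and 3.60 on day 2, 1.94, 2.20 and 4.21 on day 4, and 1.55, 3.59 and 5.75 on day 6. The ESC samples were tight, while those of D4PGCLCs and D6PGCLCs were spread widely and overlapped with each other, and D6PGCLCs also with EpiLCs. No comparison of B2m was called. D2PGCLCs were 0.95 ± 0.34 below ESCs on the log2 scale (adjusted p = 0.0277) and 0.78 ± 0.34 below EpiLCs (adjusted p = 0.0615), and D6PGCLCs were 0.88 ± 0.34 below ESCs (adjusted p = 0.0349). The last value rests on the libraries used: it was -0.50 (adjusted p = 0.145) without D6PGCLC replicate 1 and -1.35 (adjusted p = 0.00295) without D6PGCLC replicate 3.

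The nonclassical heavy chain H2-T23 encodes Qa-1, which shows leader peptides to natural killer cells. Its counts were 0 in the 3 ESC samples, 7, 6 and 1 in EpiLCs, 1, 3 and 1 on day 2, 3, 3 and 0 on day 4, and 0, 4 and 2 on day 6. Only EpiLCs held more than 4 counts in any sample. Summed over samples and set against 3 counts over the ESC group, the 14 counts of EpiLCs gave a 4.46-fold ratio. This ratio takes the 14 counts as exact, so it is not a lower limit of the fold. DESeq2, which applied no such filter, gave an adjusted p of 0.0381 for EpiLCs against ESCs, and edgeR without the filter gave 0.0429.

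Nlrc5, the transactivator that assembles on the X and Y boxes of class I promoters, was hardly detected. It had 2, 4 and 6 counts in ESCs, 15, 12 and 5 in EpiLCs, 0, 1 and 1 on day 2, 4, 1 and 1 on day 4, and 0, 18 and 10 on day 6. EpiLC counts were above every D2PGCLC and D4PGCLC count and overlapped with those of ESCs and D6PGCLCs. The value in D2PGCLCs was called lower than in EpiLCs (-3.93 ± 1.20, adjusted p = 0.0099). The ratio of the summed counts, 32 against 2, was 17.9 with an exact 95% counting interval of 4.57 to 154. Without D2PGCLC replicate 1 the adjusted p was 0.0522. In a fit of only these 2 groups Nlrc5 did not pass the filter on low counts, and 6 members were called lower instead of 7.

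**Figure D3:**
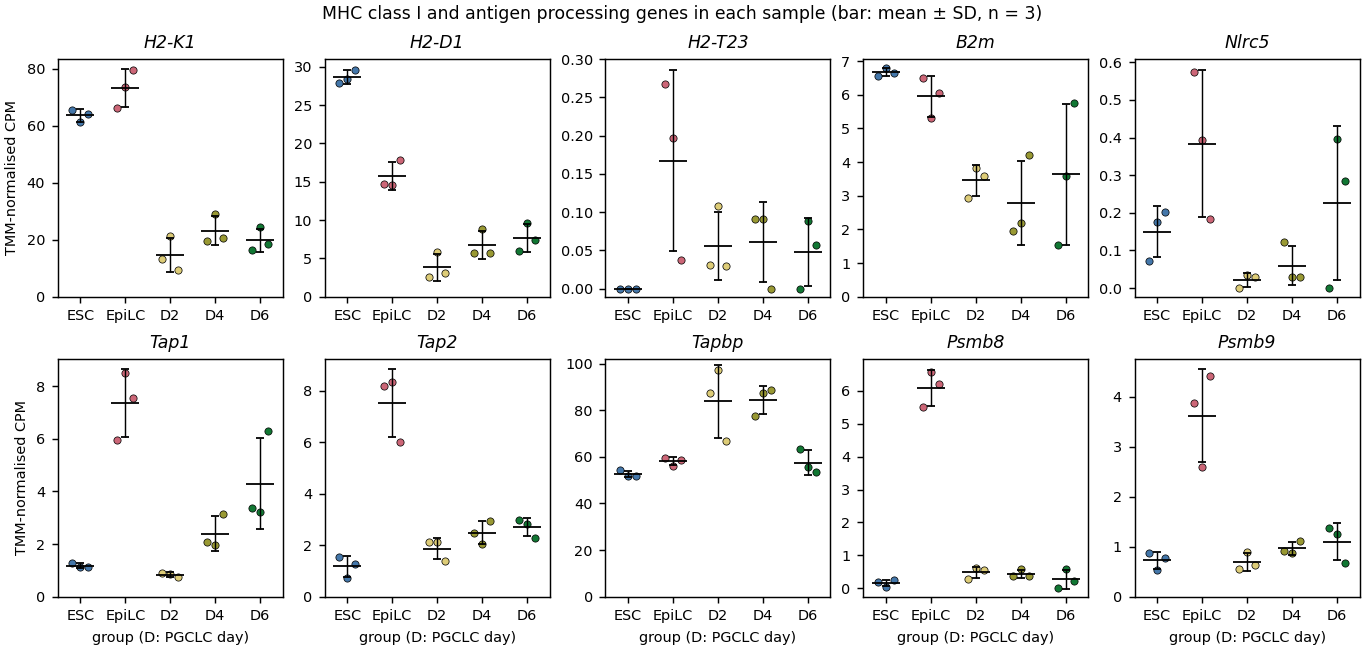
TMM-normalised CPM (y axis, linear, own scale in each panel) of the 10 genes in every sample of the 5 groups (x axis); points are samples and bars give the mean ± SD of 3. EpiLC points stand above all others for Tap2, Psmb8 and Psmb9, H2-K1 and H2-D1 are low in all PGCLC samples, and Tapbp is highest in D2PGCLCs and D4PGCLCs.

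Tap1 and Tap2 encode the subunits of the peptide transporter. Tap1 stood at 1.28, 1.14 and 1.14 CPM in ESCs, 5.97, 8.52 and 7.56 in EpiLCs, 0.919, 0.860 and 0.750 on day 2, 2.09, 1.96 and 3.15 on day 4, and 3.36, 3.21 and 6.29 on day 6. D2PGCLCs were the lowest group and overlapped with no other, each later day was higher, and the top D6PGCLC sample reached the EpiLC range. Tap1 was 6.18-fold higher in EpiLCs than in ESCs (2.63 ± 0.30, adjusted p = 5.07e-07) and fell 8.69-fold in D2PGCLCs (adjusted p = 8.14e-08). It was the only tested member called between days 2 and 4, where it rose 2.84-fold (1.51 ± 0.30, adjusted p = 0.00351). From day 4 to day 6 the value was 0.83 ± 0.27 with an adjusted p of 0.052, and 0.98 with 0.0418 without D6PGCLC replicate 1. D6PGCLCs were 3.60-fold above ESCs (1.85, adjusted p = 3.37e-05), or 2.01 without that library.

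Tap2 was called in the same direction as Tap1 at the first steps, but in none between PGCLC days. Its CPM was 1.53, 0.745 and 1.27 in ESCs, 8.19, 8.35 and 6.02 in EpiLCs, 2.11, 2.11 and 1.38 on day 2, 2.46, 2.05 and 2.95 on day 4 and 3.00, 2.82 and 2.30 on day 6. EpiLCs did not overlap with any group, and neighbouring PGCLC days did. Tap2 was 6.28-fold higher in EpiLCs than in ESCs (adjusted p = 2.65e-07) and fell 4.02-fold in D2PGCLCs (adjusted p = 4.7e-06). It was 2.26-fold above ESCs on day 6 (1.18 ± 0.28, adjusted p = 0.00175), 1.12 without D6PGCLC replicate 1, but 0.94 on the log2 scale without ESC replicate 2 and so under the fold cutoff.

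Tapbp encodes tapasin, which couples empty class I molecules to TAP, and it took another course. The 3 samples stood at 54.1, 51.9 and 51.6 CPM in ESCs, 59.3, 56.2 and 58.7 in EpiLCs, 87.4, 97.4 and 66.6 on day 2, 77.6, 87.2 and 88.4 on day 4, and 63.5, 55.5 and 53.5 on day 6. D2PGCLCs and D4PGCLCs were above all other samples. No change reached the 2-fold cutoff: D2PGCLCs were 1.44-fold above EpiLCs (0.53 ± 0.11, adjusted p = 0.000502) and D6PGCLCs 1.47-fold below D4PGCLCs (-0.55 ± 0.11, adjusted p = 0.00306), or -0.63 without D6PGCLC replicate 1. Exons of Tapbp overlap with those of Zbtb22 on the same strand, and how reads from both were counted is not given in the sources used here.

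Psmb8 and Psmb9 encode immunoproteasome subunits that replace the constitutive Psmb5 and Psmb6. Psmb8 had 5, 1 and 7 counts in ESCs and 144, 200 and 169 in EpiLCs, then 9, 17 and 18 on day 2, 12, 19 and 13 on day 4 and 0, 26 and 8 on day 6. Every EpiLC sample was far above every other sample. Psmb8 was 37.3-fold higher in EpiLCs than in ESCs (5.22 ± 0.69, adjusted p = 3.55e-06) and fell 12.8-fold in D2PGCLCs (-3.68 ± 0.60, adjusted p = 3.97e-05). On day 6 it was 21.8-fold below EpiLCs (-4.45 ± 0.62, adjusted p = 5.85e-06), and over the D6PGCLC samples left out in turn the log2 value was -3.87 without replicate 1 (adjusted p = 1.07e-06), -5.74 without replicate 2 (adjusted p = 1.57e-06) and -4.33 without replicate 3 (adjusted p = 6.29e-05).

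Psmb9 stood at 0.876, 0.526 and 0.771 CPM in ESCs, 3.86, 2.60 and 4.40 in EpiLCs, 0.552, 0.896 and 0.630 on day 2, 0.910, 0.874 and 1.12 on day 4, and 1.37, 1.26 and 0.680 on day 6. Again EpiLCs did not overlap with any group, while the other 4 groups overlapped in sequence. Psmb9 was 4.94-fold higher in EpiLCs than in ESCs (2.31 ± 0.37, adjusted p = 3.28e-05) and fell 5.23-fold in D2PGCLCs (adjusted p = 2.14e-05). Exons of Psmb9 and Tap1 overlap on opposite strands. The library kit marks strand, but whether the counting used it is not given in the sources used here, so part of either count could come from the other gene.

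Set against the subunits they replace, the immunoproteasome transcripts remained a minority in all groups. The constitutive genes Psmb5, Psmb6 and Psmb7 were called in 0 of the 7 comparisons by edgeR or DESeq2, with at most 2 of the 3 at an unadjusted p under 0.05 in any of them. By CPM per kilobase, Psmb8 made up 0.0797% ± 0.0475 (SD, n = 3) of Psmb8 and Psmb5 in ESCs, 3.32% ± 0.481 in EpiLCs, 0.246% ± 0.0698 on day 2, 0.245% ± 0.0583 on day 4 and 0.182% ± 0.205 on day 6. Without 1 sample the last mean was 0.274% (replicate 1), 0.0710% (replicate 2) or 0.203% (replicate 3). The share of Psmb9 in Psmb9 and Psmb6 was 0.117% ± 0.0244 in ESCs, 0.525% ± 0.101 in EpiLCs, and 0.113% to 0.189% on the PGCLC days, with 0.158% on day 6 without replicate 1. Psmb10, the subunit outside the MHC that replaces Psmb7, had the largest share of the 3, at 7.36% ± 0.707 in ESCs, 25.5% ± 0.541 in EpiLCs, 4.84% ± 0.137 on day 2, 4.60% ± 1.06 on day 4 and 3.96% ± 0.462 on day 6 (4.07% without replicate 1). The 3 shares depend on the gene lengths used. In each of the 3 pairs all EpiLC samples exceeded all others (exact two-sided permutation p = 0.1 against ESCs and against D2PGCLCs, 0.165 adjusted over 28 tests).

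**Figure D4:**
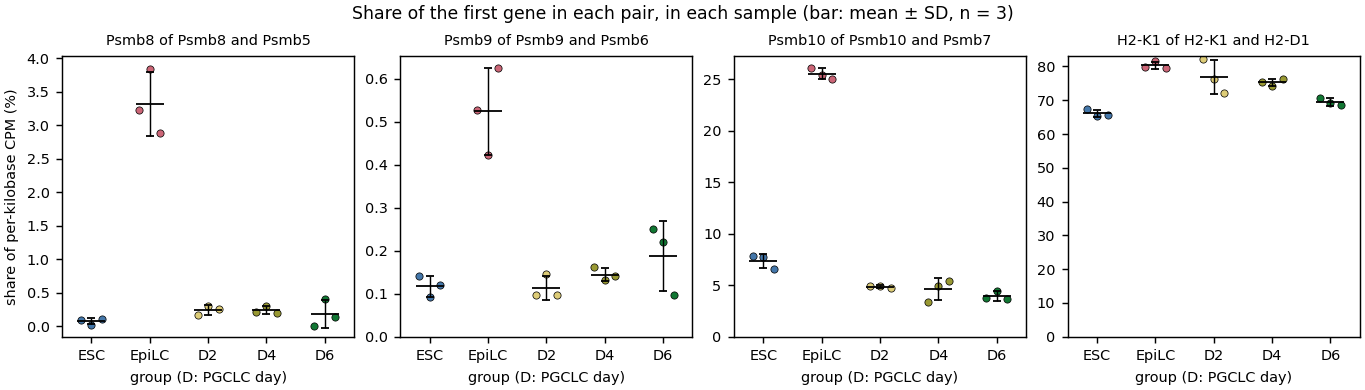
Share (%) of the first gene of each pair in the summed CPM per kilobase of both (y axis, own scale in each panel) for every sample of the 5 groups (x axis); points are samples and bars the mean ± SD of 3. The 3 immunoproteasome shares are highest in the EpiLC samples, at means of 3.32%, 0.525% and 25.5%, and the H2-K1 share ranges from a mean of 66.1% in ESCs to 80.4% in EpiLCs.

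Levels per kilobase of exon put the members in order within a group. The order depends on the length used: the principal transcript is shorter than the joined exons for H2-K1 (1619 against 2938 bases) and Psmb8 (1628 against 3381), but not for B2m (860). Whether H2-K1 overlaps with B2m, or Psmb8 with Tap2, holds only for the joined exons. In ESCs H2-K1 was first at 21.7 ± 0.733 CPM per kilobase, followed by Tapbp at 14.5 ± 0.382, H2-D1 at 11.1 ± 0.346 and B2m at 7.75 ± 0.136, with the transporter and immunoproteasome genes at 0.313 or less. In EpiLCs H2-K1 (24.9 ± 2.28) and Tapbp (16.0 ± 0.462) remained first, and Tap2 (1.99 ± 0.345) and Psmb8 (1.80 ± 0.160) were next to each other within their spread. In D2PGCLCs Tapbp was first at 23.1 ± 4.32, well above H2-K1 at 4.98 ± 2.07, which overlapped with B2m at 4.02 ± 0.538. Tapbp was the first of the 10 on each PGCLC day, at 23.3 ± 1.63 on day 4 and 15.8 ± 1.46 on day 6.

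Among genes with a mean of at least 10 CPM, the log2(CPM + 1) of H2-K1 over the 15 samples was most like that of Lrrc2 (Pearson r = 0.979), followed by Sgsm1, Ccdc85c, Nefh and Aco1 (r = 0.966 or more). For B2m the closest were Pycard (r = 0.898), Zfas1, Mcts1, Sec61b and Mrps25 (r = 0.882 or more). The samples share their groups, so these values describe a likeness of group levels. Lrrc2, for example, stood at means of 31.4 and 35.9 CPM in ESCs and EpiLCs and at 5.10, 7.47 and 7.89 on the PGCLC days.

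The other genes of the pathway were followed as lists. Of 11 other antigen processing genes, 3 were called higher and 0 lower in EpiLCs than in ESCs (14.4% and 11.9% of all tested genes). Those 3 were also the ones called lower in D2PGCLCs than in EpiLCs, where 14.4% of all tested genes were lower. They were Erap1, which trims peptides in the endoplasmic reticulum (5.69, 31.1 and 13.4 mean CPM in ESCs, EpiLCs and D2PGCLCs), Psmb10 (9.99, 51.1 and 6.07) and the tapasin-related Tapbpl (5.40, 11.4 and 2.15). The chaperones Calr, Canx and Pdia3 and the proteasome activators Psme1, Psme2 and Psme3 were not called in either comparison. The median of the list was 0.26 in EpiLCs against ESCs and -0.33 in D2PGCLCs against EpiLCs.

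The 20 other class I chains were split. For the 16 tested, the medians were -0.32 at the first step and -1.02 at the second. In EpiLCs against ESCs 4 were higher (H2-Q6, H2-M3, H2-Q7 and H2-Q2) and 3 lower (Fcgrt, H2-M5 and H2-T3), where 14.4% and 11.9% of all tested genes were. In D2PGCLCs against EpiLCs 5 were lower and 1 higher (14.4% and 11.0% of all tested genes). The lower ones included H2-Q7 (-3.30 ± 0.58, adjusted p = 8.77e-05), H2-Q10 (-3.14 ± 0.32, adjusted p = 1.44e-07) and the iron regulator Hfe (-3.89 ± 0.78, adjusted p = 0.000371). H2-Bl rose in the same comparison, from 5.91 to 28.8 mean CPM (2.28 ± 0.12, adjusted p = 2.51e-11), and it was the only chain of the list called higher there. The H2-Q genes are paralogs of H2-K1 and H2-D1, with the same limit on how reads were split.

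Factors of class I promoters and NF-kB genes were followed as 2 lists, the second of which includes Nfkbia, the gene of an NF-kB inhibitor. Of the 8 tested factors of the X and Y boxes (subunits of RFX and NF-Y, Creb1 and Atf1), 0 were called in any of the 7 comparisons by edgeR or DESeq2, with 5 at an unadjusted p under 0.05 in EpiLCs against ESCs and 5 in D2PGCLCs against EpiLCs. Ciita was not tested. All 6 genes of the NF-kB list had values below 0 in EpiLCs against ESCs (median -0.27) and above 0 in D2PGCLCs against EpiLCs (median 0.82), where all 6 passed the adjusted p alone (53.2% of all genes did). With the fold cutoff 1 was called at each step, lower at the first and higher at the second (11.9% and 11.0% of all tested genes). Relb was lower in EpiLCs than in ESCs (42.3 to 9.26 mean CPM, -2.19 ± 0.17, adjusted p = 2.29e-09), and Nfkb1 was higher in D2PGCLCs than in EpiLCs (16.1 to 81.4, 2.34 ± 0.10, adjusted p = 1.91e-12).

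Of the 28 interferon-stimulated genes 26 were tested, and 12 of the 26 were called higher in EpiLCs than in ESCs and also lower in D2PGCLCs than in EpiLCs, as Tap1 and Psmb8 were. The share of all tested genes with both calls was not counted, and it cannot exceed the 14.4% called higher at the first step. At the first step, 15 were higher and 3 lower in EpiLCs than in ESCs (14.4% and 11.9% of all tested genes), with a median of 1.85. In D2PGCLCs against EpiLCs 2 were higher and 17 lower (11.0% and 14.4% of all genes), with a median of -1.56. Gbp2, a guanylate-binding protein of the interferon-gamma response, went from 0.0670 to 17.8 and then 0.919 mean CPM. Oasl2, an oligoadenylate synthetase-like gene of the interferon response, went from 0.144 to 31.9 and 9.42, then to 15.5 on day 4 and 21.4 on day 6. On day 6 against ESCs 13 of the list were higher and 3 lower, and 14 and 3 without D6PGCLC replicate 1 (15.8% and 10.3% of all genes with all libraries).

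Of the 17 interferon receptors and signalling genes, 2 were higher and 2 lower in EpiLCs than in ESCs (14.4% and 11.9% of all tested genes), with a median of -0.39. Irf1, an activator of class I, TAP and Psmb9 promoters, rose from 48.4 ± 3.75 to 208 ± 28.9 CPM (2.10 ± 0.10, adjusted p = 6.37e-12), and Irf8 rose from 0.328 to 2.14 (2.67 ± 0.50, adjusted p = 0.000166). Socs3, an inhibitor of cytokine signalling that LIF induces, fell from 97.1 to 6.49 (-3.90 ± 0.42, adjusted p = 3.22e-07), as did Irf9 (-2.30 ± 0.13). The level of Irf1 was 131 ± 11.6 in D2PGCLCs and 78.8 ± 6.33 in D6PGCLCs, with a value of -0.67 ± 0.10 on day 2 that was under the fold cutoff (adjusted p = 1.44e-05). In D2PGCLCs against EpiLCs 3 of the 17 were higher and 3 lower (11.0% and 14.4% of all tested genes), with a median of 0.18. The receptor genes Ifnar1, Ifnar2 and Ifngr1 were not called between ESCs and EpiLCs or between EpiLCs and D2PGCLCs, while Ifngr2 rose by 1.58 in D2PGCLCs.

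**Figure D5:**
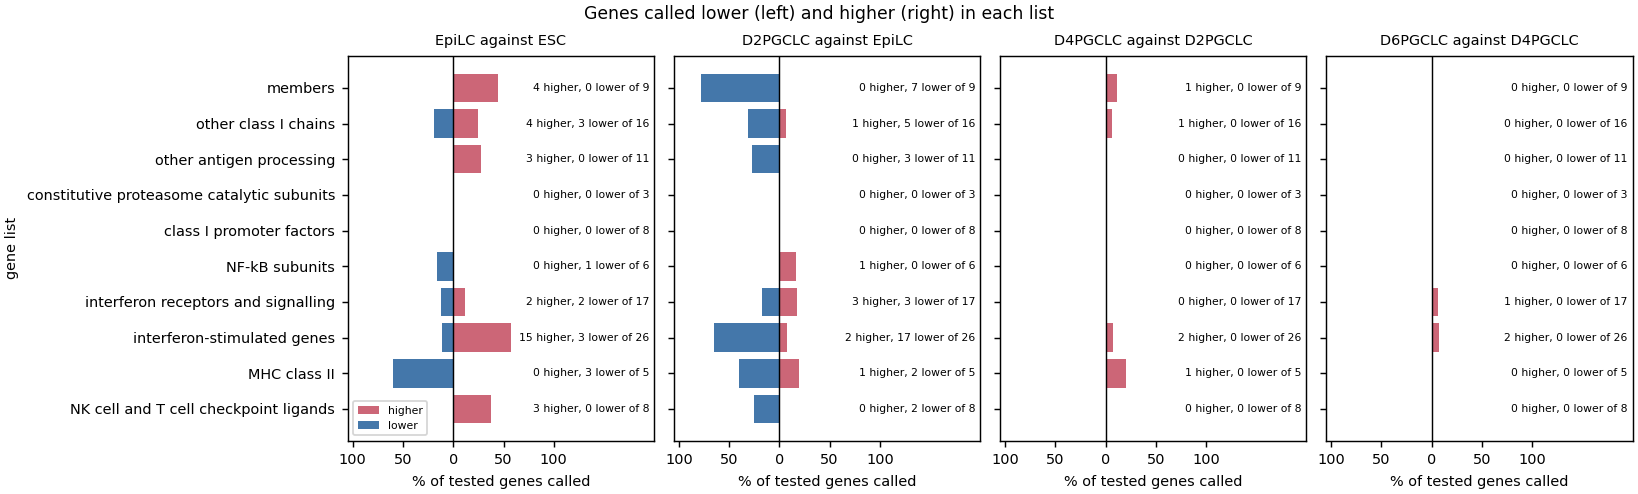
Percent of the tested genes of each list (y axis) called higher (red, right) or lower (blue, left) in the 4 successive comparisons (panels), with the counts written beside the bars. The class I genes (members) and the interferon-stimulated genes have most of their calls in the first 2 panels, to the right in EpiLCs against ESCs and to the left in D2PGCLCs against EpiLCs. All tested genes, too, were called more often in the first 2 comparisons than in the later ones.

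Of the tested fibroblast markers 4 of 7 were called higher in EpiLCs and then lower in D2PGCLCs, as Tap1, Tap2, Psmb8 and Psmb9 were, and so were 1 of 6 endoderm, 0 of 5 leukocyte and 0 of 4 endothelial markers. For all tested genes the share with both calls was not counted, and it cannot exceed the 14.4% called higher in EpiLCs. By the study's methods the line was maintained on feeder fibroblasts, but naive ESCs were grown in 2i and LIF on laminin-coated wells and EpiLCs on fibronectin, and the PGCLCs were sorted for eGFP. The summed level of 10 fibroblast markers was 10.4 to 12.2 CPM in ESCs, 28.0 to 29.2 in EpiLCs, 2.76 to 4.73 on day 2, 5.18 to 6.27 on day 4 and 6.21 to 8.02 on day 6. Of the 7 tested, 4 were higher in EpiLCs than in ESCs (14.4% of all tested genes) and 6 lower in D2PGCLCs than in EpiLCs (14.4%). Dcn had 134 to 180 counts in EpiLCs, 0 in all ESC, D4PGCLC and D6PGCLC samples and at most 3 in D2PGCLCs, while Lum was at 3 counts or fewer in every group. The 10 leukocyte markers summed to 58.9 to 63.3 CPM in ESCs, 19.7 to 23.3 in EpiLCs and 6.99 to 16.9 on the PGCLC days, with Adgre1 at 3 counts or fewer in all groups. The 7 endoderm markers summed to 7.08 to 8.29 CPM in ESCs, 3.94 to 4.95 in EpiLCs and 1.89 to 2.47 on day 2, then to 4.85 to 5.45 on day 4 and 11.8 to 19.4 on day 6. The 4 endothelial markers, among them Pecam1, which ESCs and germ cells also express, summed to 119 to 131 CPM in ESCs, 176 to 203 in EpiLCs and 364 to 458 on the PGCLC days. The part of other cells in the results was not tested. In bulk samples fewer cells of a type and less RNA per cell cannot be told apart.

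Over the whole course, D6PGCLCs differed from both starting states. Against ESCs, Tap1 and Tap2 were called higher and H2-K1 and H2-D1 lower among the 9 tested (15.8% of all tested genes were higher and 10.3% lower), and the same 4 were called without D6PGCLC replicate 1. Against EpiLCs, 5 were lower and 0 higher (12.0% and 15.9% of all genes), namely H2-K1, H2-D1, Tap2 (-1.47), Psmb8 and Psmb9 (-1.71). Without D6PGCLC replicate 1 they were 4, with Tap2 at -1.54 and Psmb9 at -1.87, since H2-D1 was under the fold cutoff. D2PGCLCs against ESCs had 2 called lower, H2-K1 and H2-D1, and 0 higher (12.7% and 11.7% of all genes). By the adjusted p alone 4, 5 and 6 passed on day 2 against ESCs, day 6 against ESCs and day 6 against EpiLCs, where 49.0%, 53.7% and 57.4% of all genes did. Psmb9 in D2PGCLCs differed from ESCs by less than its SE (-0.08 ± 0.38, adjusted p = 0.881).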

How the data were processed

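Total RNA was extracted with TRIzol, and libraries were prepared with a stranded kit (NEBNext Ultra II Directional). Per the labels and the study's methods, the authors used Trim Galore, FastQC and STAR on the mm10 genome (versions not given in the sources used here), and the deposited table holds raw counts per Ensembl gene, whole numbers with no normalization. The counting tool, its strand setting and its handling of multiply matched reads are not given in the sources used here, which affects paralogs and overlapping genes. All 15 columns were matched to samples by name, and 0 columns were left unused.

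All 55536 gene IDs were matched to GENCODE M21. Genes were filtered with filterByExpr (minimum count 10), leaving 18090, scaled by TMM and fitted in edgeR 4.0.16 (R 4.3.3, quasi-likelihood, 1 coefficient per group, all 15 samples). The 7 comparisons were tested with Benjamini-Hochberg adjustment over all 18090 genes, and a call needed both a log2 fold change above 1 in size and an adjusted p under 0.05. The SE is the fold change divided by the root of the F statistic. CPM used TMM library sizes, and levels per kilobase used the union of GENCODE exons. Shares were compared with exact two-sided permutation tests. DESeq2 1.42.0, its size factors, no filter, no fold cutoff, only the groups compared, the replicate number as a block, other gene lengths and leaving out each sample were the alternatives. The fits were tested on simulated data first. The genes, lists and rules were chosen with earlier results of these data known. In other lists, at most the 3 largest changes per list and comparison among those called are named by rule, and further genes were named after their values were seen. Of 177 list genes, 173 were matched.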

Additional observations from a re-analysis of the deposited data

How the results depend on the processing

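Depth limits Nlrc5 and H2-T23, which had at most 18 counts in any sample, and Psmb8 outside EpiLCs. The calls in EpiLCs against ESCs numbered 4 in each fit that left out 1 sample. The ranges over such fits were 6 to 7 for D2PGCLCs against EpiLCs, 1 to 3 for D4PGCLCs against D2PGCLCs, 0 to 1 for D6PGCLCs against D4PGCLCs, 2 to 3 for D2PGCLCs against ESCs, 3 to 5 for D6PGCLCs against ESCs and 4 to 7 for D6PGCLCs against EpiLCs. Leaving out D2PGCLC replicate 2 added H2-K1 (1.03) and H2-D1 (1.24) to the day 4 calls, giving 3, and leaving out D4PGCLC replicate 3 added Tap1 (1.07) on day 6, giving 1. Without a fold cutoff the calls were 3 on day 4 against day 2, 1 on day 6 against day 4 and 4 on day 2 against ESCs, since smaller changes then count. DESeq2 called 5, 7, 1, 0, 3, 4 and 5 of the members in the 7 comparisons. Samples with the same replicate number had a mean correlation of deviations of 0.0884 over 30 pairs (11 above 0.1), against -0.0443 over 60 other pairs (9 above 0.1). Whether the numbers pair samples is not given in the sources used here, and these values do not settle it. With the replicate block the calls were 4, 7, 1, 0, 2, 4 and 5, each equal to the count without it.

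Gene length moved the shares. With counts not divided by length, Psmb8 made up 0.299%, 11.4%, 0.920%, 0.917% and 0.680% in ESCs, EpiLCs and days 2, 4 and 6, Psmb9 0.229%, 1.02%, 0.221%, 0.282% and 0.368%, Psmb10 3.81%, 14.6%, 2.47%, 2.35% and 2.01%, and H2-K1 69.0%, 82.3%, 77.6% and 72.2% in ESCs, EpiLCs and days 4 and 6. With the length of the principal transcript, chosen after seeing the data, Psmb8 made up 0.165%, 6.66%, 0.510% and 0.508% in ESCs, EpiLCs and days 2 and 4, Psmb9 0.167% on day 4, Psmb10 3.39%, 13.1%, 2.20%, 2.09% and 1.78%, and H2-K1 74.3%, 85.8%, 83.1%, 81.8% and 77.1%. EpiLCs had the highest share under each length.

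Some values changed sign under the alternatives, and none of them was called. Not all were near 0 in the main fit. On day 6 against ESCs Psmb8 was at 0.77 ± 0.77 and Nlrc5 at 0.60 ± 0.96, and B2m was at 0.38 ± 0.34 on day 6 against day 4. Tapbp between days 4 and 2 was -0.000317 with DESeq2, -0.000550 with its size factors and -0.00804 with only these groups. Over the fits without 1 sample, ranges that crossed 0 were -0.13 to 0.13 for this value of Tapbp, -0.0827 to 0.0388 for Tapbp on day 6 against EpiLCs, -0.30 to 0.0760 for Psmb9 on day 2 against ESCs, -0.39 to 0.0909 for Psmb8 on day 4 against day 2 and -0.52 to 1.35 on day 6 against ESCs, and -0.0948 to 1.19 for Nlrc5 on day 6 against ESCs. On day 6 against day 4 they were -0.00203 to 0.26 for Tap2, -0.0157 to 0.44 for H2-D1 and -0.11 to 0.80 for B2m. Over all gene values under the alternatives, 708 kept their direction and their side of the call, 18 gained a call, 4 lost it and 18 reversed.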

Other observations

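Genes that meet natural killer cells and T cells were followed as a further list. Of 8 tested ligand genes, 3 were higher and 0 lower in EpiLCs than in ESCs (14.4% and 11.9% of all tested genes): Cd274, the gene of PD-L1, went from 0.226 to 2.47 mean CPM (3.44 ± 0.41, edgeR adjusted p = 1.15e-06), and the NKG2D ligands Raet1d (3.20 ± 0.53) and Raet1e (2.06 ± 0.28) were higher too. In D2PGCLCs against EpiLCs, Raet1e (-2.40 ± 0.28) and Raet1d (-1.29 ± 0.44) were lower and 0 were higher (14.4% and 11.0% of all tested genes). The summed level of the 10 matched genes of the list was 160 to 166 CPM in EpiLCs and 260 to 283 on day 2. On day 6 against ESCs 4 of the 8 were higher and 0 lower (15.8% and 10.3% of all tested genes). Without D6PGCLC replicate 1 these counts were 3 and 0. On day 6 Cd274 was still 2.94 ± 0.41 above ESCs, at 1.75 mean CPM, and Nectin2, a ligand of the receptors DNAM-1 and TIGIT, was 1.33 ± 0.08 above ESCs. Both were also called without D6PGCLC replicate 1, at 3.16 and 1.31.

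MHC class II genes, which present peptides to CD4 T cells, were expressed at low levels. Of 9 listed, 5 were tested, and 3 were lower and 0 higher in EpiLCs than in ESCs (H2-Ab1, H2-Eb1 and H2-DMb1), where 11.9% and 14.4% of all tested genes were. The summed level of the list was 15.0 to 16.6 CPM in ESCs and 6.02 to 7.10 in EpiLCs. It was 5.27 to 7.77 on day 2, 8.01 to 11.7 on day 4 and 11.4 to 13.5 on day 6, where H2-Ab1 had 0 counts in replicate 1. In D2PGCLCs against EpiLCs 2 of the 5 were lower and 1 higher (14.4% and 11.0% of all tested genes). Cd74, the invariant chain gene, was among the lower ones (1.74 to 0.154 mean CPM, -3.49 ± 0.56, adjusted p = 3.66e-05).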
